A study of Mus musculus with 3 samples.

Results

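MicroRNA genes that the deposited transcript table lists as rows of their own were described in cortical neurons of wild-type mice, the control condition. A row was taken as a member if its transcript has the gene type miRNA in GENCODE release M21, with the gene Mir6236 left out. This gave 654 of the 84660 rows, against 2202 microRNA genes in that release. Members were then placed by coordinates on GRCm38 in an exon or intron of another gene on the same strand (the host), opposite a gene, or outside genes.

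The study has 1 group of 3 libraries, replicates 1 to 3, made from total RNA of WT neurons labelled CON, and its title concerns DNA supercoiling and topoisomerases in the neuronal genome. No second genotype, treatment or time was compared, and the age of the animals and any pooling are not given in the sources used here. The labels do not say that the libraries come from separate cultures, so the SD over libraries may be technical. RNA purified on RNeasy columns was made into libraries with a KAPA RNA HyperPrep kit, which serves long RNA, and no selection for short RNA is named in the labels' protocols. A member's value is therefore a count of long-RNA reads over the hairpin's annotated span, and no value below measures a mature microRNA.

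As background, most microRNAs are cut from a long primary transcript. The Microprocessor, made of Drosha and Dgcr8, releases a hairpin in the nucleus, Dicer cuts it to a short duplex, and an Argonaute protein keeps one strand, whose seed (bases 2 to 8) pairs with target messages. Many hairpins lie in introns of coding genes, others in exons of long noncoding RNA, and a few overlap coding or untranslated exons. The families miR-9, miR-124, miR-132 and miR-212 are well known from neurons and neural progenitors.

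Sequences are shown first for the microRNAs on which the results turn, as RefSeq gives them on GRCm38.p6, read 5′ to 3′. Mir9-2, the neural locus with the most reads, is given as its hairpin at chr13:83738814-83738885 on the plus strand, with the mature arms in capitals.
Mir9-2 hairpin: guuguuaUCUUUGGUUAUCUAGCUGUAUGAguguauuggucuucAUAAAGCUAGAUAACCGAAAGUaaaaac

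In the mature sequences capitals mark the seed. The first set are neural microRNAs. Among the members, mature miR-9-5p is encoded by Mir9-2 and Mir9-3, which differed in reads, and miR-138-5p by Mir138-1 and Mir138-2. Loci without a row were not searched. The microRNAs miR-132-3p and miR-212-3p share the seed AACAGUC and a host. The loci of miR-137-3p and miR-153-3p were at 0.
mmu-miR-9-5p: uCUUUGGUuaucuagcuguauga
mmu-miR-138-5p: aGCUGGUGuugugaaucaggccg
mmu-miR-132-3p: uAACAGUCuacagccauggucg
mmu-miR-212-3p: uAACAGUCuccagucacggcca
mmu-miR-137-3p: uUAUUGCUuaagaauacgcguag
mmu-miR-153-3p: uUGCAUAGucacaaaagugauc

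The second set belong to loci with high values inside exons or at exon ends of a host. The seed of each was found at no other member locus.
mmu-miR-5114: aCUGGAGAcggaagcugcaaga
mmu-miR-6418-3p: aCUGCAACcuccuuucuccagg
mmu-miR-3082-5p: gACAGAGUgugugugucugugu
mmu-miR-3064-5p: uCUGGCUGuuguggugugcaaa
mmu-miR-770-5p: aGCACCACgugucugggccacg
mmu-miR-1306-3p: aCGUUGGCucugguggugaug

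The third set are 2 intronic microRNAs with reads in every library (miR-5125 and miR-186-5p) and 3 of the imprinted Dlk1-Dio3 interval. The seed of miR-410-3p, AUAUAAC, was also that of the loci Mir344d-1, Mir344d-2 and Mir344d-3.
mmu-miR-5125: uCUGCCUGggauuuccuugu
mmu-miR-186-5p: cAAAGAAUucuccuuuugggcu
mmu-miR-410-3p: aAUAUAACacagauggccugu
mmu-miR-3072-3p: uGCCCCCUccaggaagccuucu
mmu-miR-433-3p: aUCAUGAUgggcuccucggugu

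By coordinates, 464 members held at least 1 RefSeq mature microRNA, with 695 distinct seeds. Of these seeds, 630 occurred at 1 member locus and 65 at 2 or more. The let-7 seed GAGGUAG and the Mir344 seed GUCAGGC each occurred at 6 loci.

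Values are in TPM, the usual length-scaled unit of transcript level, scaled by transcript length and by the sum over all rows. TPM times length was a whole multiple of 1 constant per library, which returned whole reads for 100% of the members. Reads on 1 transcript per coding gene numbered 34434495, 30428763 and 29920419 in replicates 1 to 3, and reads on members 23729, 18498 and 18598. At the members' median length of 82 bases, 1 read was worth 0.238, 0.282 and 0.267 TPM, and the upper limit that a count of 0 allows (3 reads) was 0.714, 0.846 and 0.801 TPM. These limits cover counting error only. All 6 neuron markers stood at 37.8 to 687 TPM, 5 of 5 astrocyte markers at 16.6 to 184 TPM, 4 of 5 markers of the oligodendrocyte lineage and 1 of 4 microglial markers reached 1 TPM, and 0 of 3 endothelial markers did. The part of other cells in the members' values was not tested. All 13 genes of microRNA processing examined were at 1 TPM or more, from Ago4 at 1.11 ± 0.02 TPM to Drosha, the nuclear nuclease, at 23.0 ± 1.65 TPM (SD, n = 3, as for all errors below).

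Most microRNA loci carried few reads or none. Of the 654 members, 166 (25.4%) had at least 10 reads summed over the 3 libraries, against 80.3% of all 83017 rows with a length and 33.2% of the 1012 other rows no longer than the longest member. A mean of at least 1 TPM was reached by 146 (22.3%), against 62.4% of all rows. At the other end, 209 members were at 0 in every library and 279 had 1 to 9 reads. Per library, 321, 345 and 334 members were at 0. Genes of the types snoRNA and scaRNA, together called small nucleolar RNA genes here, guide RNA modification. They reached 10 reads in 39.4% and 1 TPM in 31.3% of 409 rows. By placement, 201 of these rows lay in introns and 127 in exons, and 25.4% and 71.7% of them reached 10 reads.

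Reads were concentrated in a few loci. The 3 members with the most reads held 48.2% of all 60825 member reads, and the 12 with the most held 73.0%. RefSeq, as used here, listed no hairpin at 213 members, and these held 55.5% of the member reads. Gm26377 and Gm22133, both among the 3 with the most reads, had no RefSeq hairpin. Nor had Gm22123, Gm25749, Gm23935 and Mir1906-1, which are described below. Among the 82 members with at least 10 reads in each library, the coefficient of variation over libraries had a median of 16.1% and lay under 20% for 51 members, from 20% to 40% for 28, and above that for 3.

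Placement relative to other genes went with the level. Inside a same-strand exon lay 182 members, and these held 77.8% of the member reads. A further 78 lay partly over an exon end (median overlap 26 bases, range 1 to 125) and held 18.6%. The 274 members in introns held 2.22%, the 40 opposite a gene 1.26%, and the 80 outside genes 0.10%. Gm23935 alone held 706 of the 764 reads opposite genes.

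The share of members with at least 10 reads was 50.5% in exons (92 members), 57.7% at exon ends (45), 9.49% in introns (26), 2 of 40 opposite genes and 1.25% outside genes (1). The median exonic member stood at 0.87, 0.82 and 0.77 TPM in replicates 1 to 3, about the value of 3 reads. The median intronic member was at 0 in every library, as was the median member outside genes. On the log2(TPM + 0.1) scale, exonic members were higher than intronic ones by 3.21 ± 0.08, in 3 of 3 libraries. The two-sided exact sign-flip permutation test over libraries gave p = 0.25, the smallest that 3 libraries allow. Because the intronic median was 0, the pseudocount sets much of this size: the difference was 0.87 with a pseudocount of 1 and 6.38 with 0.01. Among members with at least 10 reads it was 1.21.

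Intronic members were also set against the 120 members outside any same-strand gene, whether opposite a gene or outside genes. Their medians had a difference of 0.00 in each library (p = 1, exact sign-flip permutation test), since both medians were at 0. In introns 176 of 274 members had a read in any library, opposite genes 14 of 40, and outside genes 28 of 80. Outside genes the locus with the most reads was Mir3070b, with 7, 3 and 1. The classes were close in length, with medians of 82.0 bases in exons, 77.5 in introns and 90.5 outside genes. The median GC content was 57.0% in exons, 54.6% in introns and 51.9% outside genes.

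**Figure D1:**
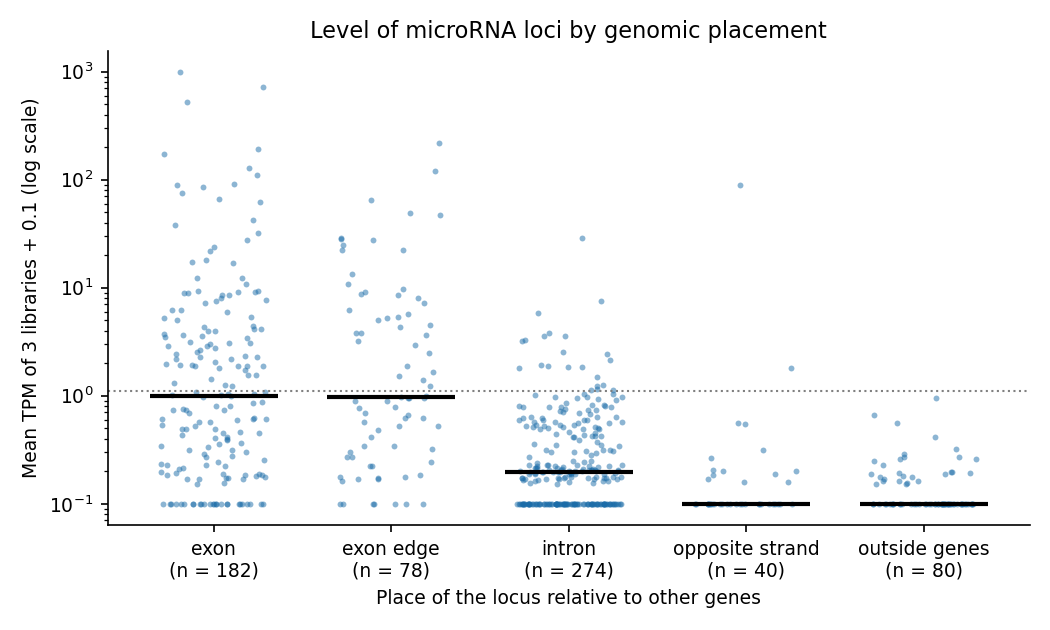
Each point is 1 microRNA locus, placed by its position relative to other genes (horizontal axis), with its mean TPM of 3 libraries plus 0.1 on a log axis. Black bars are medians and the dotted line marks 1 TPM. Loci in exons and at exon ends spread up to 987 TPM, while the highest intronic locus reached 28.5 TPM.

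The 12 members with the highest TPM among those with at least 10 reads in each library lay in exons (9), at exon ends (2) and opposite a gene (1). Gm26377, at chr9:78478528-78478635 on the minus strand in the 3′ UTR of Eef1a1 (the translation elongation factor), stood at 1066, 964 and 929 TPM in replicates 1 to 3, from 5903, 4501 and 4585 reads. Its mean was 987 ± 71.2 TPM and that of Eef1a1 577 ± 63.3 TPM, a mean ratio of 172% over the libraries, and the ranges of the locus and its host did not overlap. Of its 50-base stretches, 79.7% were unique in the genome.

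Mir5114, at chr19:44303171-44303231 across coding sequence and UTR of Scd2 (a stearoyl-CoA desaturase of lipid synthesis), had 829, 746 and 572 TPM. Its lowest library lay above the highest of Scd2, whose mean was 366 ± 36.7 TPM. Gm22133, at chr7:45458089-45458197 across coding sequence and UTR of Ftl1 (the ferritin light chain of iron storage), had 645, 497 and 442 TPM against 124 ± 28.4 TPM for Ftl1. Both loci were lowest in replicate 3, as were both hosts.

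Gm22123, at chr11:6472225-6472277 in the 3′ UTR of Purb (a single-strand nucleic acid binding protein), had 188, 251 and 145 TPM. Its host Purb had 55.6, 70.7 and 47.4 TPM, with the libraries in the same order. Mir6418, at chr5:137529480-137529594 with 30 of its bases over the end of an exon of Gnb2 (a G protein beta subunit), had 232, 220 and 202 TPM. It stood at 262% of the most-read Gnb2 transcript and 154% of the one with the highest TPM. Mir8114 overlapped an exon of Glul, the glutamine synthetase, by 93 bases and stood at 121 ± 14.1 TPM, 77.2% of Glul. Mir8094, over the end of an exon of the RNA helicase gene Ddx39b, stood at 64.8 ± 4.95 TPM, 209% of its most-read transcript and 99.7% of the one with the highest TPM.

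Further loci lay in exons that the most-read transcript of the host lacks. Mir3082, at chr17:25831365-25831428 inside a retained intron of Stub1 (a ubiquitin ligase that works with chaperones), had 150, 159 and 214 TPM. This was 442% of the most-read Stub1 transcript. Gm25749, at chr3:80692203-80692313 in a retained intron of Gria2 (an AMPA receptor subunit), had 102, 103 and 127 TPM. This was 154% of the most-read Gria2 transcript, but 76.3% of the Gria2 transcript with the highest TPM (145 ± 7.81 TPM), so the direction turned with the host transcript. The transcript that holds Gm25749 stood at 107 TPM.

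A pair of such loci, Mir3064 and Gm25994, lay 411 bases apart in Ddx5, an RNA helicase that associates with the Microprocessor. Mir3064 had 94.4, 98.4 and 81.7 TPM, and Gm25994 had 78.4, 76.5 and 69.6 TPM, while Ddx5 stood at 145 ± 11.4 TPM. The log2 difference between the loci was 0.29 ± 0.07, with Mir3064 higher in every library. Both loci were below the host in every library.

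Gm23935, at chr16:11144125-11144181 opposite the zinc finger gene Zc3h7a, had 39.0, 58.8 and 172 TPM. No 50-base stretch of it was unique, so a read of that length lying wholly inside it cannot be assigned to 1 place. Longer reads and reads that run past its ends were not examined. Its coefficient of variation, 79.6%, was the highest among members with at least 10 reads in each library, and without replicate 3 its mean of 89.8 TPM fell to 48.9 TPM.

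The other members with a large spread and at least 30 reads in each library were Gm23419 (66.9, 54.0 and 25.3 TPM, over the end of an Actg1 exon, with 45.7% unique stretches), Gm27597 (28.8, 11.6 and 25.5 TPM, in a coding exon of the ribosomal protein gene Rpl19, with no unique stretch) and Mir7578 (14.0, 22.9 and 30.2 TPM, with 1 base over an exon of Brd3, a bromodomain protein). Gm23490 in A230057D06Rik had 7.80, 10.1 and 14.2 TPM. The highest library was replicate 1 in 2 of these 5 loci and replicate 3 in 3. Over all 82 members with at least 10 reads in each library it was replicate 1 in 39, replicate 2 in 27 and replicate 3 in 16.

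**Figure D2:**
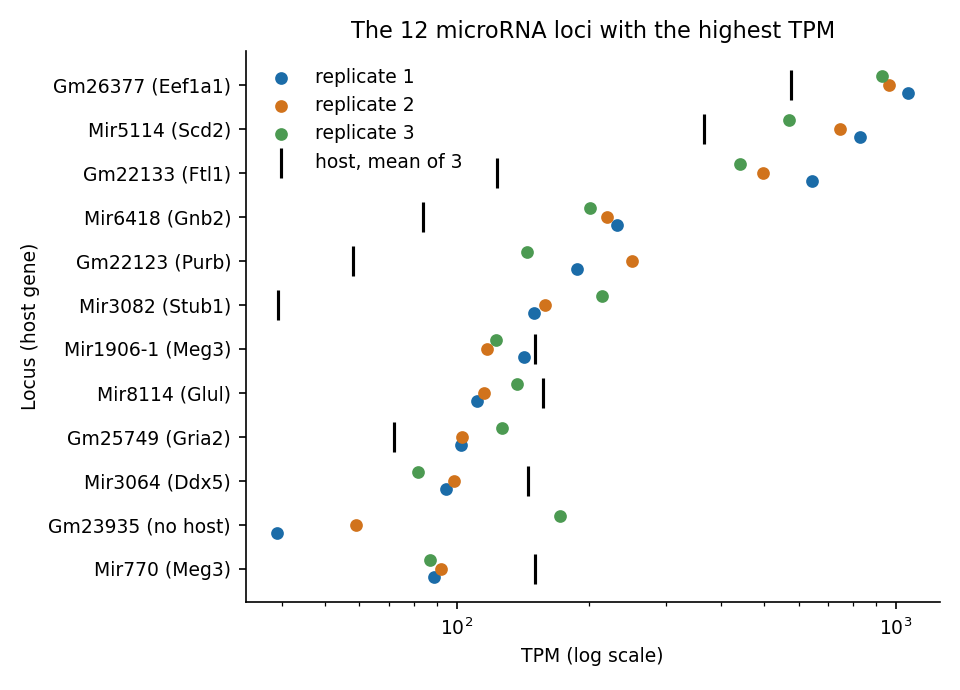
The 12 microRNA loci with the highest mean TPM are shown with 1 colored point per library on a log TPM axis, and a black bar marks the mean of the host's most-read transcript. Libraries lie close together except for Gm23935, which ranges from 39.0 to 172 TPM, and 7 loci lie above the host bar.

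Next, each member was compared with its host, represented by the host transcript with the most reads. A percentage of a host is the mean of 3 per-library ratios for the most-read transcript, and the ratio of means where the highest-TPM transcript is named. Hosts numbered 484 genes for 534 members, and 431 members had a coding host. Reads inside a shared exon may count for both rows and cannot be told apart. Whether a read that only touches a short row was counted is not given in the sources used here, so a value above 100% of a host is a ratio of TPM and not of molecules.

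Exonic members stood below their host by a median log2 difference of 1.33, written as member minus host -1.33 ± 0.14 over 169 members with a host value, in 3 of 3 libraries (p = 0.25, exact sign-flip permutation test, the smallest possible). Among exonic members with at least 10 reads the value was -0.35. It depended on whether the host's most-read transcript holds the exon. For 112 members inside an exon of that transcript the median member had 43.3% of the host's TPM and 41 members were above the host, or 34 when the host transcript with the highest TPM was used. For 57 members inside an exon of another isoform only, the median was 11.4%.

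Within the host's most-read transcript the members were divided by the part they lie in. The 27 members in 3′ UTRs had a read in every case, 22 had at least 10 reads, and the median was 4.03 TPM, or 94.3% of the host (log2 difference -0.17 ± 0.14). The 16 in coding exons had a median of 3.94 TPM and a log2 difference of -0.36 ± 0.20, and 14 had at least 10 reads. The 13 in 5′ UTRs had a median of 0.48 TPM, or 11.3% of the host, and 5 had at least 10 reads. Their log2 difference was -3.26 ± 1.17, with -2.45, -4.60 and -2.74 in replicates 1 to 3. Their median lay under the value of 3 reads, so few reads and the pseudocount set much of this size. The 50 in noncoding transcripts had a median of 0.15 TPM, with hosts at a median of 0.74 TPM. The 6 across coding sequence and UTR had a median of 5.23 TPM and a log2 difference of -2.03 ± 0.54, and 4 had at least 10 reads. Of the 6, 3 were above their host, and the median share of the host was 56.9%. These 6, with Mir5114 and Gm22133 among them, held 23.8% of all member reads.

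The median GC content also differed between these parts, 47.7% in 3′ UTR members and 68.3% in 5′ UTR members. In 3′ UTRs, Mir678 in Prmt2 (an arginine methyltransferase) stood at 66.5 ± 6.03 TPM and 306% of its host. Mir5113 lay in the 3′ UTR of Tnrc6b, which encodes an Argonaute partner in silencing, and stood at 17.2 ± 1.78 TPM, 426% of Tnrc6b. In coding exons, Mir686 in Psmb5, a proteasome subunit, stood at 85.2 ± 8.81 TPM and 438% of its host. These examples were chosen after their values were seen.

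Dgcr8, the Drosha partner, carries 2 hairpins of its own, of a kind the Microprocessor is known to cut. Mir1306, at chr16:18284238-18284317 in a coding exon, had 36, 30 and 29 reads (8.78, 8.67 and 7.94 TPM). Gm24572, 232 bases away in the 5′ UTR, had 37, 33 and 28 reads (8.20, 8.67 and 6.97 TPM). Dgcr8 itself had 6.72, 6.42 and 6.41 TPM, below both loci in every library. The loci differed by a log2 difference of 0.09 ± 0.09, about the spread between libraries.

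Intronic members stood far below their host. The median log2 difference was -5.33 ± 0.08 over 268 members with a host value, in 3 of 3 libraries (p = 0.25, exact sign-flip permutation test, the smallest possible), and the host was higher for 264 of the 268. The size depended on the pseudocount, with -2.93 for a pseudocount of 1 and -7.52 for 0.01, and among members with at least 10 reads it was -2.93. The hosts were well measured, at a median of 8.18 TPM.

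**Figure D3:**
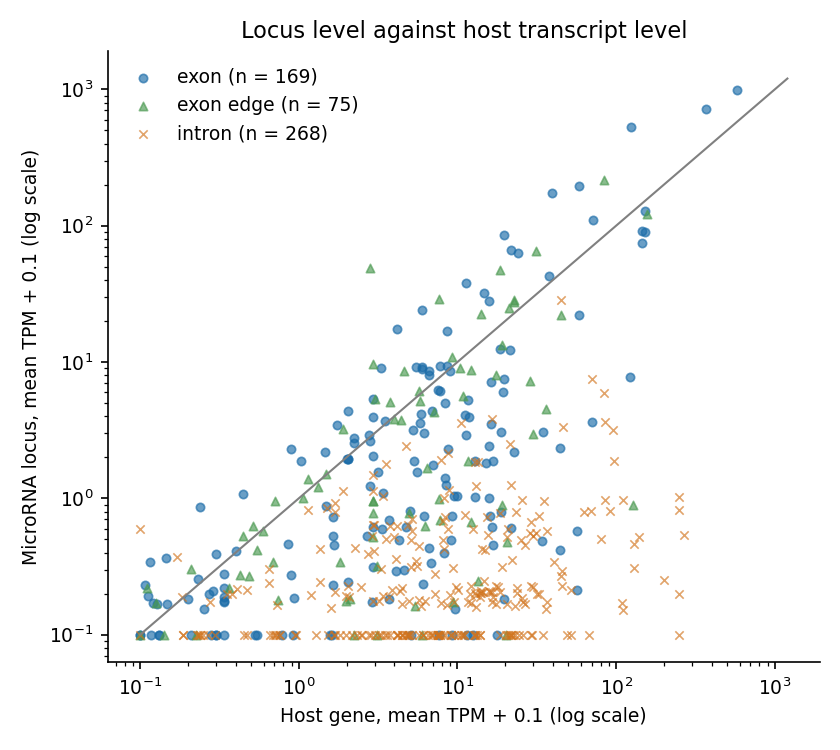
Mean TPM plus 0.1 of each microRNA locus (vertical) against that of its host gene (horizontal), both on log axes, for loci in exons, at exon ends and in introns; the line marks equal values. Exonic loci lie around and below the line, and intronic loci far below it, many at 0.

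Reads on intronic members were commoner in more abundant hosts. With a host under 1 TPM, 11 of 31 members had a read and 0 had 10 or more. With a host of 1 to 10 TPM it was 69 of 117, with 10 to 50 TPM 70 of 95, and with at least 50 TPM 22 of 25, of which 8 had at least 10 reads. As a share of the host, the median intronic member had 0% of hosts under 1 TPM, 1.49% of hosts of 1 to 10 TPM, 0.63% of hosts of 10 to 50 TPM and 0.31% of hosts of at least 50 TPM. The median number of reads behind these shares was 0, 1, 1 and 4, so the shares rest on very few reads.

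Only 6 intronic members had at least 10 reads in each library. Mir5125, at chr17:23823291-23823369 in an intron of Srrm2 (a splicing coactivator), had 122, 91 and 104 reads (30.1, 26.6 and 28.8 TPM). Srrm2 had 44.3, 44.2 and 46.8 TPM, so Mir5125 stood at 63.3% of it. No other of the 6 exceeded 33.5% of its host.

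Mir7000 in Mapk8ip1, a scaffold of JNK signalling, had 28, 17 and 21 reads and 10.5% of its host. Mir186, at chr3:157544279-157544349 in the splicing factor gene Zranb2, had 24, 15 and 19 reads and 6.93%. Mir1898 in Zfr, a zinc finger RNA-binding protein, had 14, 12 and 10 reads and 3.25%, or 1.66% of the highest-TPM transcript of Zfr. Mir3060 in Rnf215 had 33.5%, and Gm27353 had 11.4% of its assigned host Gm44503, a read-through gene model, so that host is uncertain. All 6 were below their host in every library.

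Intronic small nucleolar RNA genes, placed the same way, gave a reference for another RNA cut from introns. Of 201 such rows, 154 had a read and 51 (25.4%) at least 10, against 176 and 26 (9.49%) of the 274 intronic members. The median difference was 1.47 ± 0.10 on the log2 scale, the nucleolar RNAs higher in 3 of 3 libraries (p = 0.25, exact sign-flip permutation test, the smallest possible). The intronic microRNA median was 0, so the pseudocount sets much of this size: it was 0.24 with a pseudocount of 1 and 4.23 with 0.01. With at least 10 reads required in both classes the sign turned, to -0.29 ± 0.50. Their median length was 127 bases against 77.5, and the part of length in the difference was not tested.

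Inside an exon of a gene on the other strand lay 18 members, of which 7 had a read. They had 44 reads in all, 31 of them on Mir433. For 10 of the 18 the gene opposite had at least 1 TPM. These genes had a median of 5.14 TPM, and the 10 members had 3 reads in all. Of the 10, 3 had a read. This share was close to that of all members opposite genes (14 of 40) and of those outside genes (28 of 80).

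Among the microRNA families known from neurons, 17 loci had a row. Of these, 11 had a read, 5 had at least 10 reads and 2 reached 1 TPM, with a median of 0.21 TPM against 0.12 TPM over all members. Mir9-2, at chr13:83738806-83738892 in an exon of the lincRNA C130071C03Rik, had the most, with 169, 173 and 174 reads (37.9, 46.0 and 43.8 TPM). Its host had 36.9, 36.9 and 38.5 TPM, so the hairpin row and the lincRNA had about the same level, 114% on average.

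Mir9-3, which gives the same mature miR-9-5p, had 0 reads in each library. It lies in an intron of Mir9-3hg, which stood at 10.9 ± 1.57 TPM. For a row of its length, 3 reads are the limit that a count of 0 allows. Both hosts were above 1 TPM.

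The miR-124 loci lay in noncoding hosts and were all low. Mir124a-1, at chr14:64590657-64590741 in an exon of Mir124a-1hg, had 11, 6 and 11 reads (2.53, 1.63 and 2.83 TPM). Its host stood at 15.7 ± 2.68 TPM, so the locus had 14.8% of it. Mir3078, 443 bases further along the same exonic host, had 141, 81 and 120 reads (31.6, 21.5 and 30.2 TPM), above the host in every library. Between these neighbors the log2 difference was 3.54 ± 0.15, with no overlap; the pair was chosen after its values were seen. Mir124a-2 had 3, 2 and 3 reads, 8.56% of Mir124-2hg, and Mir124a-3 had none, beside a host of 3.02 TPM.

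Mir132 and Mir212 lie in an intron of 1700016P03Rik, a low host of 1.26 TPM. Mir132 had 0, 0 and 2 reads and Mir212 had 0, 1 and 3. At this depth these values cannot be told from 0 or from each other, and the means of both rest on replicate 3: without it Mir132 is at 0 and Mir212 at 0.13 TPM.

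In introns of well expressed coding genes, neural loci had few or no reads. Mir7-1 in Hnrnpk (an RNA-binding protein of 69.0 ± 2.64 TPM) had 6, 2 and 3 reads, 1.02% of the host's most-read and 0.53% of its highest-TPM transcript. Mir128-1 in R3hdm1 (44.9 ± 3.24 TPM) had 1, 0 and 1. Mir153 in Ptprn2, a protein of dense-core vesicles at 49.0 ± 2.52 TPM, had 0 in each library.

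The remaining neural loci had between 0 and 10 reads. Mir129-1 had 3, 3 and 4 reads and Mir138-2 had 5, 1 and 4, while Mir138-1, with the same mature miR-138-5p, had 5, 0 and 2. Mir134 in Mirg had 1, 2 and 0. Mir137 (host Gm26871, 1.46 ± 0.50 TPM), Mir218-1 in the guidance gene Slit2 (3.49 TPM) and Mir7b, outside genes, were at 0 in all libraries. A count of 0 in 1 library allows up to 3 reads.

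**Figure D4:**
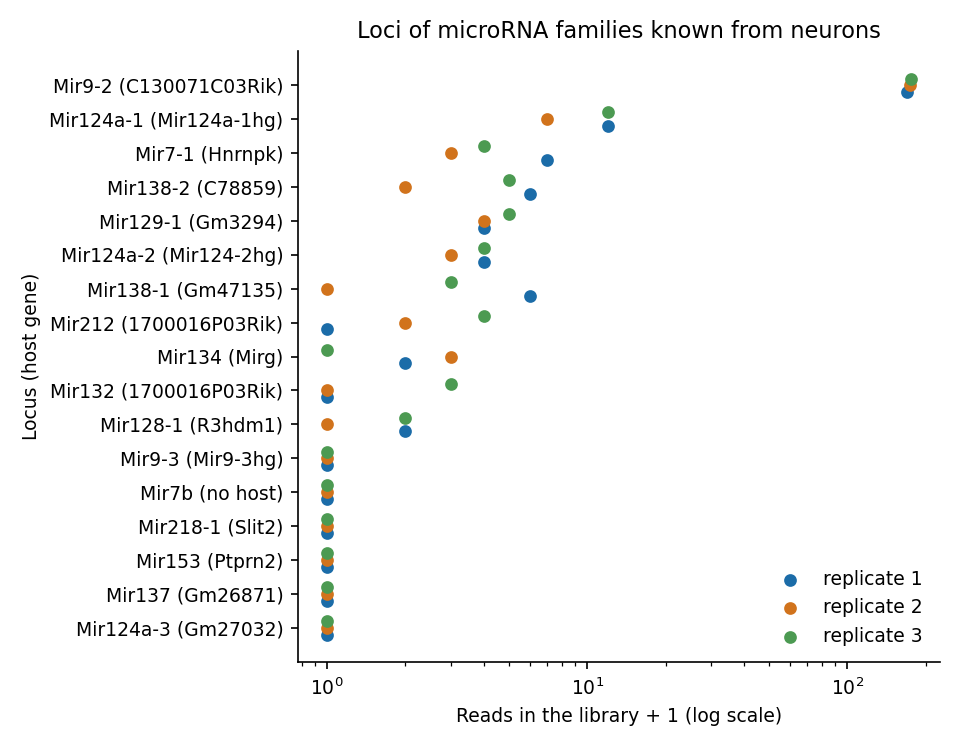
Reads plus 1 in each of the 3 libraries (colored points, log axis) for the 17 loci of microRNA families known from neurons, with the host gene in brackets. Mir9-2 has 169 to 174 reads in each library, every other locus has 11 or fewer, and 6 loci are at 0 in all.

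The let-7, miR-125 and miR-181 families, which are common in many tissues, had 11 rows, of which 8 had a read and 2 at least 10. The highest was Mirlet7b, with 3, 6 and 5 reads (1.20 TPM). Of the glial microRNAs Mir338 had 0, 0 and 2 reads in Aatk, and Mir219a-2 had none. Of the microRNAs typical of other tissues, 4 rows were measured. Mir21a had 2, 2 and 1 reads, 1.14% of its host Vmp1 (34.0 ± 2.58 TPM; 0.71% of the highest-TPM transcript), in whose 3′ UTR it lies. Mir1b had 0, 0 and 1, and Mir126a and Mir451a had none. Against all members, of which 25.4% had at least 10 reads, the neural list had 5 of 17, the let-7 group 2 of 11, and both other lists 0.

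Of genomic clusters with at least 5 members at gaps of up to 10 kb, 3 were found. In the Mir17hg cluster (chr14:115043671-115044506) 6 members had 7 reads in all, from Mir17 at 0 to Mir92-1 at 0.18 TPM, and the host stood at 0.24 TPM. The members of this cluster, known from proliferating cells, were near the limit of detection, while the host was low but had 118 reads over the 3 libraries.

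The other clusters lie on chromosome 12 in the imprinted Dlk1-Dio3 interval, whose maternal copy is transcribed through the noncoding genes Meg3, Rian and Mirg. The first (chr12:109580233-109595398) had 12 members and 33, 12 and 15 reads. Its highest was Mir433, at chr12:109591715-109591838 opposite Rtl1, with 18, 4 and 9 reads, and Mir665 was at 0, as were Mir434 and Mir3071. The second (chr12:109709056-109747960) had 25 members and 125, 76 and 73 reads, with 8 members at 10 reads or more and 10 at 0. Its highest was Mir3072, with 46, 29 and 38 reads (10.8, 8.08 and 10.02 TPM), and Mir379 was among the 10 at 0.

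Over the interval, a grouping made after the values were seen, 43 members were divided by host. The 2 in Meg3 exons were high. Mir1906-1, in an exon that the most-read Meg3 transcript lacks, had 142, 117 and 123 TPM, but none of its 50-base stretches was unique. Mir770, 19071 bases further and wholly unique, had 88.6, 92.3 and 87.1 TPM against 136, 144 and 173 TPM for the most-read Meg3 transcript. Against the Meg3 transcript with the highest TPM (326 ± 38.6 TPM) it had 27.4%, and Mir1906-1 39.1%. The coefficient of variation of Mir770 was 2.98%.

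Rian stood higher than Meg3, at 249 ± 27.0 TPM for the most-read and 440 ± 20.3 TPM for the highest-TPM transcript, but its 4 intronic members had 27 reads together and a median of 0.16% of the host. The highest were Mir1188 with 8, 3 and 5 reads and Mir341 with 6, 3 and 1. Mirg was lower, at 2.84 ± 0.34 TPM for its most-read transcript and 11.2 ± 1.37 TPM for the one with the highest TPM, and all 13 of its members had a read, 272 in all. Mir3072 stood at 339% of the most-read Mirg transcript, and Mir410, inside a Mirg exon with 24, 21 and 15 reads, at 189%. The most-read transcript has no exon over Mir3072, and one that does stood at 5.29 TPM. Against the Mirg transcript with the highest TPM the direction turned, to 86.3% for Mir3072 and 47.2% for Mir410. Mir134, in the same host, was lower than Mir410 by 4.39 ± 0.96 on the log2 scale. Mir134 had only 1, 2 and 0 reads, so the pseudocount sets much of this size. The 24 members of the interval without a host gene had 62 reads in all, and 13 of them were at 0.

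**Figure D5:**
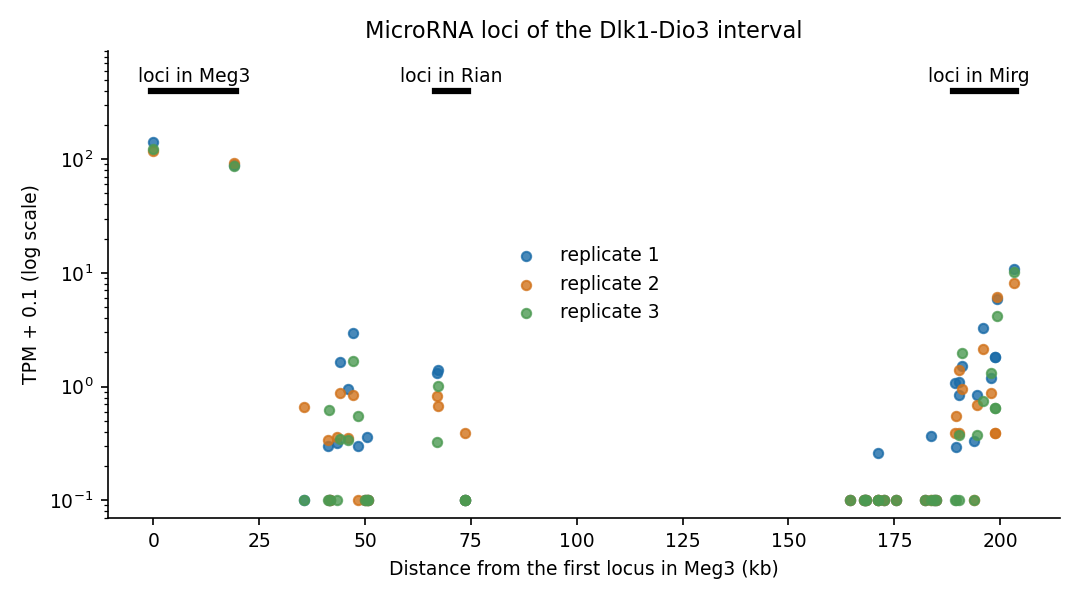
TPM plus 0.1 (log axis) of the 43 microRNA loci of the Dlk1-Dio3 interval against their distance in kb from the first locus in Meg3, with 1 colored point per library. The 2 Meg3 loci lie near 100 TPM, the Rian loci near 1 TPM or below, and the values among the Mirg loci reach 10.8 TPM at the far end.

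Other hosts carried members with unlike values; these were also chosen after the values were seen. In Ctdsp2, a phosphatase gene, Mir546 in the 3′ UTR had 125, 132 and 144 reads (405% of the host's 5.89 ± 0.39 TPM). Mir26a-2, which overlaps an exon of another isoform of Ctdsp2 by 1 base, had 0 in each library. In A330023F24Rik, Mir29c had 25, 9 and 20 reads and Mir29b-2, 423 bases away, had 2, 5 and 14. Their log2 difference was 3.32, 0.74 and 0.44 in the 3 libraries, with an SD of 1.59 larger than its mean, so the order of these neighbors is not settled by 3 libraries. Mir22 in its noncoding host Mir22hg had 32, 21 and 17 reads, 44.6% of the host.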

How the data were processed

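The authors deposited 1 table of TPM values, with rows for transcripts of GENCODE release M4 per its name. Per the submitters' processing notes, STAR 2.5.3a, Subread 1.4.6, featureCounts and FastQC 0.11.2 were used on build mm10. Counting options are not given in the sources used here.

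Members were found by transcript identifier in GENCODE release M21 on GRCm38. Whole reads (tolerance 0.01 of a read) were recovered as TPM times annotated span, divided by the library's constant. A host is a gene other than a small RNA gene whose same-strand exon or intron holds the member, and its value is that of its most-read transcript. Uniqueness is the share of 50-mers found once on 22 chromosomes. Hairpins and mature sequences came from RefSeq on GRCm38.p6. Differences are medians of log2(TPM + 0.1) inside each library, averaged over the 3 libraries and tested by flipping the signs of the library values (exact permutation test, two-sided).

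Named are the 12 highest members with at least 10 reads in each library, the 3 highest per placement (opposite genes 1 member passed, outside genes 0), all loci of the neural and glial lists, the ends of each cluster of at least 5 members, the extreme intronic members against their host, and the 5 of largest spread with at least 30 reads in each library. Members and lists were chosen with earlier results of these data known, and some others were named after their values were seen. The statistics were tested on simulated data. Python 3.11.15, numpy 2.4.6, pandas 2.3.3, numba 0.67.0 and matplotlib 3.10.9 were used.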

Additional observations from a re-analysis of the deposited data

How the results depend on the processing

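No paired analysis was possible because the libraries form 1 group. The differences between exonic and intronic members, and of both classes from their hosts, kept their sign under every alternative run. These were at least 10 reads, coding hosts only, at least 90% unique 50-mers, other host transcripts, RefSeq hairpins only and leaving out each replicate. Pseudocounts of 1 and 0.01 changed the size. They are no check of the sign, because adding a pseudocount keeps the order of the values. Leaving out 1 replicate gave 3.17 to 3.24 for exonic minus intronic members, -1.41 to -1.27 for exonic members minus host, -5.35 to -5.28 for intronic members minus host, and 1.41 to 1.51 for intronic small nucleolar RNA minus intronic members. With at least 10 reads required, the last was reversed to -0.29, and intronic members minus those outside any same-strand gene moved from 0.00 to 0.19 (SD 0.53); this filter leaves 51 nucleolar RNA genes, 26 intronic members and 3 members outside same-strand genes, and the cause was not tested. The number of members with reads was 166, 133 to 141 with a replicate left out, 222 with 1 read in each library and 82 with 10 reads in each. The number at 1 TPM was 146, 150 to 154 with a replicate left out, and 212 at 0.5 TPM. The alternatives of RefSeq hairpins, exon ends as exonic, and the host transcript that holds the member or its exons only, were chosen after seeing the data. At the median length, levels under 0.714 to 0.846 TPM (3 reads) could not be told from 0 in 1 library.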
